A study of Homo sapiens with 6 samples.

Results

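The serine synthesis and folate one-carbon genes examined here are 10 genes chosen by name, PHGDH, PSAT1, PSPH, SHMT1, SHMT2, MTHFD1, MTHFD2, MTHFD2L, MTHFD1L and ALDH1L2. Each matched exactly 1 row of the deposited table of 58735 genes, and all 10 were among the 15496 genes with enough reads to be tested. The study sequenced polyadenylated RNA from SW1990, an established pancreatic ductal adenocarcinoma cell line, to find genes whose expression differs under the DOT1L inhibitor EPZ-5676. DOT1L is a histone H3 lysine methyltransferase that marks the bodies of transcribed genes. The treated group was 3 libraries of SW1990 cells given 5 µM EPZ-5676, and the control group was 3 libraries of SW1990 cells that the treatment protocol says received DMSO in equal volume, although another label calls them untreated. The time of exposure was not stated there, and all libraries come from 1 cell line. No label says that the replicates were separate cultures, so the p-values measure only the spread between these libraries, which may be technical.

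Cells make serine from the glycolytic intermediate 3-phosphoglycerate through PHGDH, PSAT1 and PSPH in turn. The hydroxymethyltransferases SHMT1, in the cytosol, and SHMT2, in mitochondria, then convert serine to glycine and pass its side-chain carbon to tetrahydrofolate. In mitochondria MTHFD2 or MTHFD2L oxidises that carbon, which MTHFD1L then releases as formate or ALDH1L2 oxidises to carbon dioxide. In the cytosol the trifunctional enzyme MTHFD1 uses formate to charge folates for purine and thymidylate synthesis. PHGDH, PSAT1, SHMT2 and MTHFD2 are known targets of the stress transcription factor ATF4, and these enzymes are often raised in tumours.

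The libraries held 33970420 to 39749648 reads assigned to genes. Levels are given in CPM, counts-per-million on TMM-scaled library sizes. The 7 ductal markers were split. The keratins KRT8, KRT7 and KRT18 were abundant (means of 2658, 1883 and 1194 CPM in the controls), and MUC1 was at 32.8 CPM. In contrast, EPCAM (1.89 CPM) and KRT19 (0.430 CPM) were low, though with enough reads to be tested, and CDH1 had 0 reads in every library. All 6 acinar and islet markers had 0 reads. The summed level of 5 leukocyte markers ran from 2.21 to 10.0 CPM without the inhibitor and from 3.85 to 5.61 CPM with it. The 3 endothelial markers summed to 1.63 to 3.18 and 1.37 to 3.25 CPM. The 6 fibroblast markers, led by COL1A1 and DCN, summed to 83.9 to 93.8 and 93.9 to 100 CPM. Mitochondrial genome transcripts took 1.78% to 2.24% of control reads and 2.16% to 2.25% of treated reads. Without correction for GC content, 2 of 6 tested ductal markers were higher (KRT8 and KRT18), 1 of 5 fibroblast markers was higher (COL1A1) and 2 lower (DCN and LUM). Neither of the endothelial markers tested passed, and 4 of 13 mitochondrial genome transcripts were higher. Among all tested genes, 15% were higher and 18.7% lower without this correction. With that correction and one for transcript length, 0 of the tested ductal and fibroblast markers passed, and 9 of the 13 mitochondrial genome transcripts were higher (median log2 fold change 0.55, against 0.21 without it). The shares of all tested genes were then 5.4% higher and 5.58% lower. The part of these markers and mitochondrial transcripts in the results was not tested.

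Under EPZ-5676 the mRNA of PSAT1, MTHFD2, ALDH1L2, MTHFD2L and MTHFD1 was lower, MTHFD1 having dropped by 20.1% and MTHFD2 having dropped by 46%, whereas PHGDH, PSPH, SHMT1, SHMT2 and MTHFD1L did not pass the test. Thus 5 of the 10 genes were called lower and 0 higher, with 0.05 as the threshold for the Benjamini-Hochberg adjusted p of edgeR's quasi-likelihood test over all tested genes. Of all tested genes 18.7% were called lower and 15% higher (2899 and 2326 genes, or 2228 and 2784 with a trend in transcript length removed). The median log2 fold change was -0.29 for the 10 genes and -0.05 for all tested genes. Every treated library lay below every control for 6 of the 10 genes, a pattern shown by 24.2% of tested genes, and above every control for PHGDH alone, the reverse pattern being shown by 21.8%. A lower level in these bulk samples can mean fewer cells with the transcript or less of it per cell, which cannot be told apart.

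**Figure D1:**
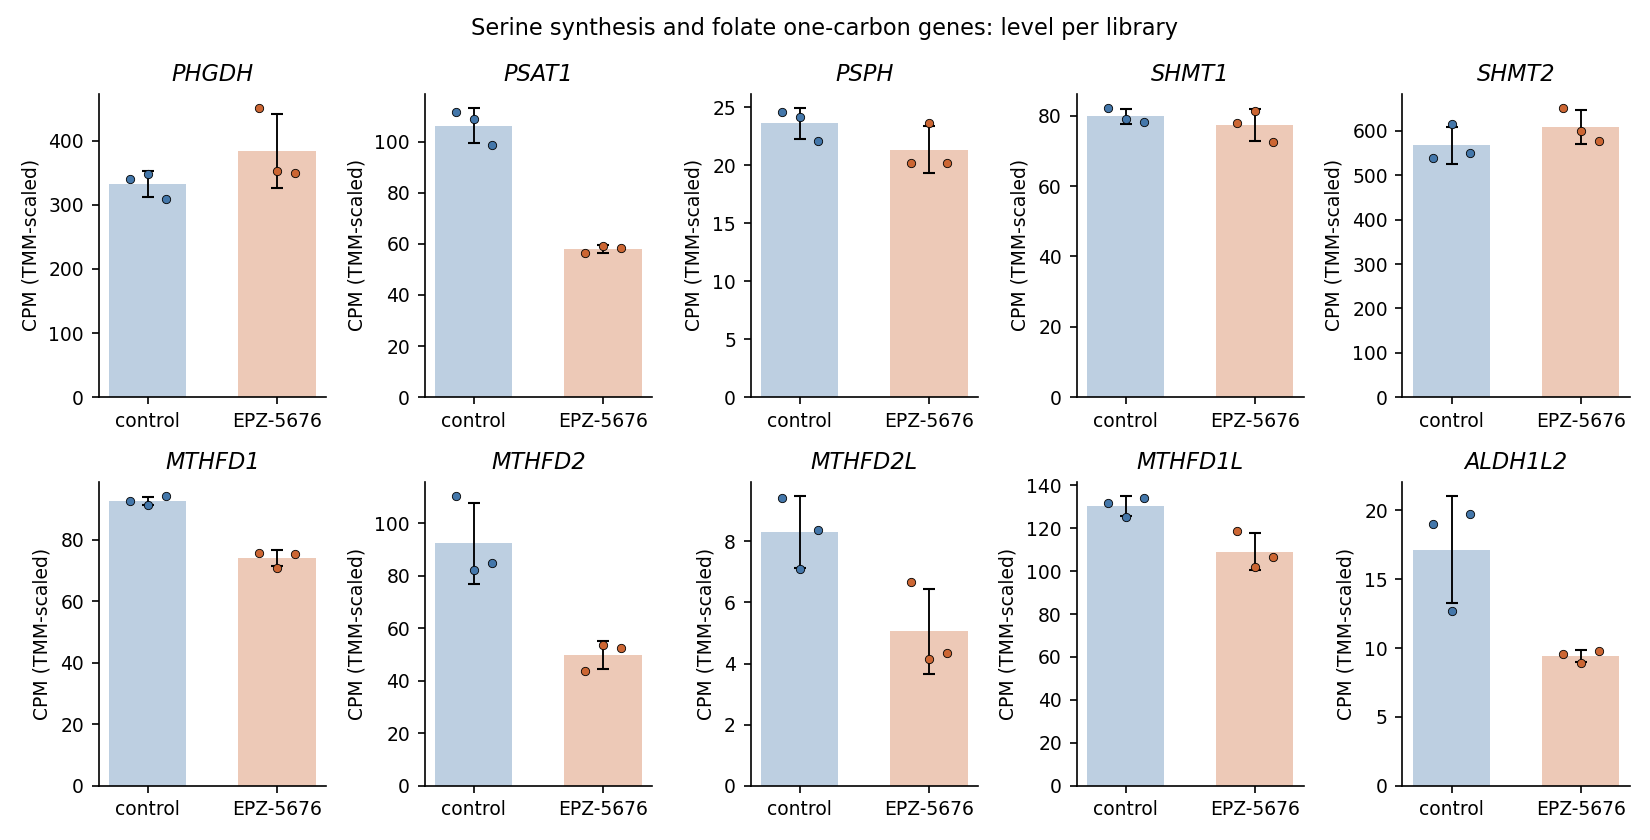
Level of each of the 10 genes in CPM on TMM-scaled library sizes; points are the 3 libraries of a group in the order of their replicate numbers, bars the mean and whiskers the SD. The treated points of PSAT1, MTHFD2, ALDH1L2, MTHFD2L, MTHFD1 and MTHFD1L all lie below the control points, while those of PSPH, SHMT1 and SHMT2 overlap with them.

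Fold changes in these libraries varied with transcript GC content. Of tested genes in the lowest of 10 equal classes by GC content of the longest transcript, 49.2% were called lower, and in the highest class 49.6% were called higher. The members called lower had GC contents of 36.4% to 47.6%, and those not called had 49.8% to 57.0%, so in the 10 genes the call and the GC content cannot be told apart. The test was therefore repeated after smooth trends with GC content and transcript length had been removed from each library, which also removes any treatment effect that follows them. After this correction 3 of the 10 genes were called lower (PSAT1, MTHFD2 and MTHFD1L) and 0 higher, against 5.58% of all tested genes lower and 5.4% higher. The median log2 fold change was then -0.17 for the 10 genes and -0.0045 for all tested genes.

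**Figure D2:**
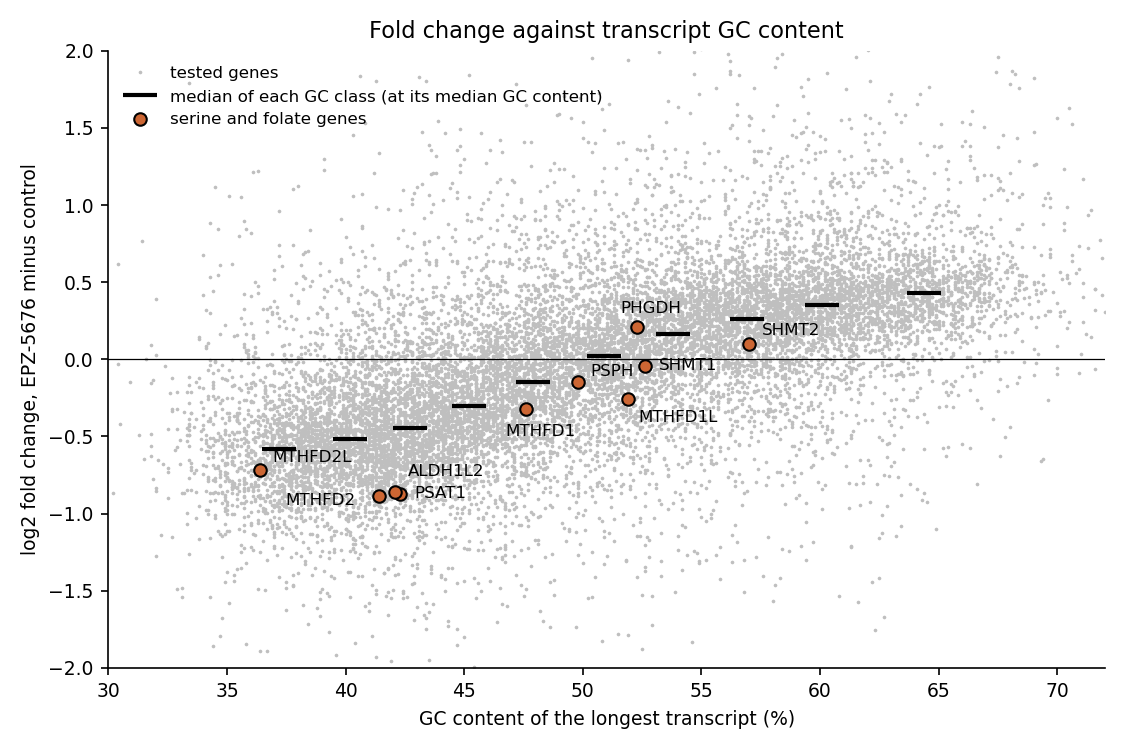
Log2 fold change (treated minus control, no correction) against the GC content of the longest transcript, for tested genes (grey), the median of each of 10 GC classes (black bars, placed at the median GC content) and the 10 genes (orange). Axes leave out 123 of 15487 genes; PSAT1, MTHFD2 and ALDH1L2 lie near -0.87 where the median of their GC classes is -0.45 or -0.52, and PHGDH lies at 0.21.

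Promoter windows of 300 bases (250 before to 50 after the RefSeq gene start, GRCh38.p14) were listed for 7 of the 10 genes, with PSPH, SHMT2 and ALDH1L2 not matched. Those of the 3 genes called lower after the correction and of PHGDH, the first gene of the pathway, are shown because they let the genes that fell be read beside one that did not. They are given 5′ to 3′ on the gene's strand, with capitals marking the CCAAT box CCAAT, the E-box CACGTG and the C/EBP-ATF composite TGATGNAA, the element through which ATF4 is known to act, each searched on both strands. The PSAT1 window is chr9:78296875-78297174, that of MTHFD2 chr2:74198365-74198664, that of MTHFD1L chr6:150866236-150866535 (the first of 4 listed starts) and that of PHGDH chr1:119711684-119711983, all on the plus strand.
PSAT1: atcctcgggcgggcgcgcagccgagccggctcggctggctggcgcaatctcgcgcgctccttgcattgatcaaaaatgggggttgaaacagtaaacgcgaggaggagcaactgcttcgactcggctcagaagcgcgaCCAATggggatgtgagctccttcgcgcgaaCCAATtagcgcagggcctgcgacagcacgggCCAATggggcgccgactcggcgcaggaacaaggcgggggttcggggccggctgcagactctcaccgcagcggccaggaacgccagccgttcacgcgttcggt
MTHFD2: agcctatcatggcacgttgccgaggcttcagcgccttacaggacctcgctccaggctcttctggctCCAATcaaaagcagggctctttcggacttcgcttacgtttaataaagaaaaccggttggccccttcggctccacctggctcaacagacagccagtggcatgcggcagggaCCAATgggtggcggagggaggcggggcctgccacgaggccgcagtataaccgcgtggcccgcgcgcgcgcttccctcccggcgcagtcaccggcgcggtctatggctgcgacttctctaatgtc
MTHFD1L: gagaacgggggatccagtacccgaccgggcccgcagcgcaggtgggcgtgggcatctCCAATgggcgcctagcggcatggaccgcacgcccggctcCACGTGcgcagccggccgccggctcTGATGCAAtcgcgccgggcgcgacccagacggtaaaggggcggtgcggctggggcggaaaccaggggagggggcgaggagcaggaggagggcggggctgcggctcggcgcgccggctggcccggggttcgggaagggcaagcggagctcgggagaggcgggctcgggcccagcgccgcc
PHGDH: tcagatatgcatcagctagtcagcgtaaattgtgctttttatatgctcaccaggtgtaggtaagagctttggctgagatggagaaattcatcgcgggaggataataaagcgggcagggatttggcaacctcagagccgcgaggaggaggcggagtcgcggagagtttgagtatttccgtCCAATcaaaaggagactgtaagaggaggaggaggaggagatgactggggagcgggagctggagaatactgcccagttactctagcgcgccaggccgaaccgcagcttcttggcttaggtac

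A CCAAT box was found in windows of 6 of the 7 genes, against 34.6% of the 35116 promoter windows of this length. PSAT1 had 3 copies in the same orientation, whose first bases lay at -113, -83 and -52 from the gene start, and MTHFD2 had 2, at -184 and -74. PHGDH had 1 at -71 from a RefSeq start that lies inside the span the deposited table gives the gene. The C/EBP-ATF composite was found for MTHFD1L alone (at -129 in the window shown), against 3.6% of all windows. An E-box was found for MTHFD1L (at -154) and MTHFD1 (at -15), against 7.3% of all windows. The GC box GGGCGG (4 of the 7 genes, against 45.0% of windows) and the CRE half-site TGACG (1 of the 7, against 24.6%) were also searched and are not marked. A gene with several listed starts counted if any of its windows matched. None of the marked motifs overlapped with another in the windows shown. A match describes letters only, and windows this short leave out introns and more distant sequence.

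Serine synthesis begins with PHGDH (ENSG00000092621, chromosome 1, 119648411 to 119744226, plus strand, GRCh38), the dehydrogenase that commits 3-phosphoglycerate to the pathway. It was at 340.4, 348.6 and 309.7 CPM in controls 1, 2 and 3 and at 451.1, 352.2 and 350.2 CPM in treated libraries 1, 2 and 3. The groups did not overlap, but treated library 3 was above control 2 by a small margin and treated library 1 stood well above the rest. The log2 fold change was 0.21 ± 0.11 (SE), with a 95% interval of -0.02 to 0.44 and an adjusted p of 0.151; with the trends removed it was 0.12 ± 0.09 (adjusted p = 0.467). The difference did not pass the threshold in any of 23 alternative settings.

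PSAT1 (ENSG00000135069, chromosome 9, 78297143 to 78330093, plus strand), the aminotransferase of the next step, fell. Its level was 111.6, 108.8 and 98.54 CPM without the inhibitor and 56.43, 59.28 and 58.48 CPM with it. The treated libraries differed from each other by a few CPM and all lay far below the lowest control. The log2 fold change was -0.87 ± 0.10 (adjusted p = 1.63e-05), so that the level fell by 45.4%. With the GC and length trends removed it was -0.46 ± 0.09 (adjusted p = 0.00144). The median log2 fold change of all genes in its GC class was -0.45. PSAT1 passed the threshold in all 23 alternative settings, including each library left out with and without the correction (log2 fold changes from -0.93 to -0.37). PHGDH, which did not pass, and PSAT1 both held CCAAT boxes in the promoter windows shown above.

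PSPH (ENSG00000146733, chromosome 7, 56011051 to 56051604, minus strand) encodes the phosphatase that releases serine. It was at 24.59, 24.13 and 22.11 CPM without the inhibitor and 20.15, 23.66 and 20.15 CPM with it, with overlapping groups. This gave a log2 fold change of -0.15 ± 0.14 (95% interval -0.44 to 0.14, adjusted p = 0.449). Its unprocessed pseudogene PSPHP1 had 416 to 586 reads per library, in total 59% of the reads given to PSPH, so the split of reads between the copies is uncertain.

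Within each library the level of PSAT1 relative to PHGDH, in RPKM (CPM divided by the kilobases of exonic sequence), was 1.38, 1.32 and 1.34 in the controls and 0.527, 0.709 and 0.704 in the treated libraries. This pair was chosen after its values were seen. The size of this ratio and of the later ones depends on the length used. Per kilobase of the longest transcript, PHGDH (105) stood above PSAT1 (48.6) in the controls. The log2 difference between the groups does not depend on length. The ratio fell by 1.07 on the log2 scale, and a two-sided exact permutation test gave p = 0.1, the smallest that 3 against 3 libraries allow (0.2 adjusted over the 4 ratios tested). The transcripts of PSAT1 and PHGDH have 42.3% and 52.3% GC, and the part of this difference in the result was not tested within the ratio. The corrected log2 fold changes were -0.46 and 0.12.

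SHMT2 (ENSG00000182199, chromosome 12, 57229327 to 57234935, plus strand), the mitochondrial serine hydroxymethyltransferase, was the most abundant of the 10 transcripts. It was at 538.6, 615.7 and 550.0 CPM without the inhibitor and 651.9, 599.4 and 577.3 CPM with it. The groups overlapped through control 2. This gave a log2 fold change of 0.10 ± 0.10 (95% interval -0.11 to 0.31, adjusted p = 0.466). It turned to -0.16 ± 0.07 after the correction (adjusted p = 0.189), so its direction is not settled. NDUFA4L2 overlaps SHMT2 on the other strand, with 1744 to 2985 reads per library, and no source used here gives the strand setting of the counting.

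The cytosolic SHMT1 (ENSG00000176974, chromosome 17, 18327860 to 18363563, minus strand) was at 82.23, 79.05 and 78.18 CPM without the inhibitor and 78.09, 81.48 and 72.59 CPM with it. Its groups overlapped through treated library 2, while the other treated libraries lay below every control. Treated library 1 did so by a small margin (78.09 against 78.18 CPM). The log2 fold change was -0.04 ± 0.10 (95% interval -0.26 to 0.17, adjusted p = 0.77), or -0.15 ± 0.08 with the trends removed (adjusted p = 0.267). SMCR8 overlaps it on the other strand, with 832 to 1516 reads per library. The RPKM ratio of SHMT2 to SHMT1 was 9.86, 11.7 and 10.6 in the controls and 12.6, 11.1 and 12.0 in the treated libraries, a log2 difference of 0.15 (two-sided exact permutation p = 0.2, adjusted p = 0.267).

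Among the mitochondrial folate enzymes, MTHFD2 (ENSG00000065911, chromosome 2, 74198562 to 74217565, plus strand), a dehydrogenase and cyclohydrolase, had the lowest fold change estimate of the 10 genes, within the error of those of PSAT1 and ALDH1L2. It was at 110.3, 82.08 and 85.01 CPM without the inhibitor and 43.65, 53.64 and 52.41 CPM with it. Control 1 was high and treated library 1 low, and the other libraries still left a wide gap between the groups. The log2 fold change was -0.89 ± 0.12 (adjusted p = 7.33e-05), so that the level fell by 46%. With the trends removed it was -0.42 ± 0.09 (adjusted p = 0.00304). The median of all genes in its GC class was -0.52. MTHFD2 passed the threshold in all 23 alternative settings, with log2 fold changes of -0.95 to -0.35.

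MTHFD2L (ENSG00000163738, chromosome 4, 74114174 to 74303099, plus strand), the paralog of MTHFD2, was the rarest of the 10 transcripts per kilobase of all exonic sequence, though not of the longest transcript, with 146 to 375 reads per library. Its level was 9.43, 7.10 and 8.39 CPM without the inhibitor and 6.66, 4.16 and 4.35 CPM with it. Treated library 1 came close to control 2 without reaching it. The log2 value of -0.72 ± 0.22 passed (adjusted p = 0.0179), but the call was lost without control 1 (0.0883), control 3 (0.0564), treated library 2 (0.0784) or treated library 3 (0.0809). After the correction the log2 fold change was -0.13 ± 0.22 (95% interval -0.58 to 0.32, adjusted p = 0.77), and the median of all genes in its GC class was -0.58 before it.

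The RPKM ratio of MTHFD2 to MTHFD2L was 23.6, 23.3 and 20.4 in the controls and 13.2, 26.0 and 24.3 in the treated libraries. Treated library 1 was below every control and the other treated libraries were above every control (log2 difference -0.14, two-sided exact permutation p = 1), and without treated library 1 the difference was 0.17. The ratio of MTHFD2 to the cytosolic MTHFD1 was 2.30, 1.73 and 1.74 in the controls and 1.11, 1.46 and 1.34 in the treated libraries. Here the groups did not overlap (log2 difference -0.56, exact permutation p = 0.1, the smallest possible, adjusted p = 0.2). The transcripts have 41.4% and 47.6% GC, and the corrected log2 fold changes of -0.42 for MTHFD2 and -0.18 for MTHFD1 lay closer together than the uncorrected -0.89 and -0.32.

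**Figure D3:**
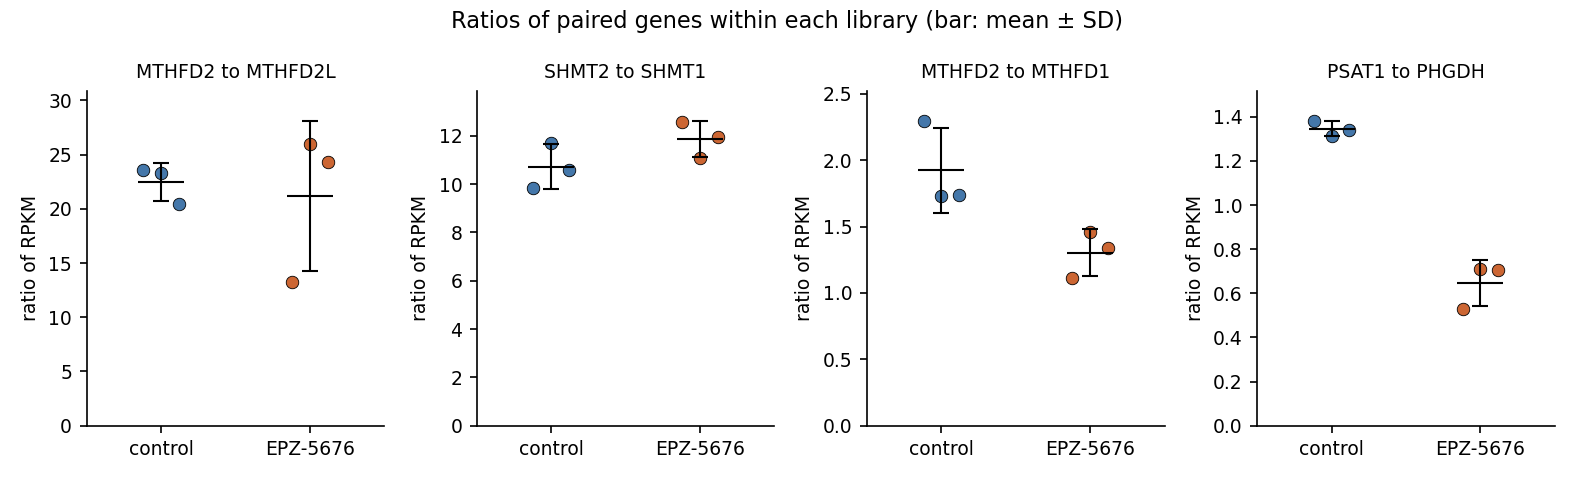
Ratio of RPKM (CPM divided by the kilobases of exonic sequence) between paired genes within each library; points are libraries, long bars the mean and whiskers the SD (n = 3 per group). The ratios of PSAT1 to PHGDH and of MTHFD2 to MTHFD1 are lower in all 3 treated libraries, while those of SHMT2 to SHMT1 overlap between groups and those of MTHFD2 to MTHFD2L have treated libraries on both sides of the controls.

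MTHFD1L (ENSG00000120254, chromosome 6, 150865549 to 151101887, plus strand), the synthetase that releases formate in mitochondria, was at 131.6, 125.0 and 133.9 CPM without the inhibitor and 118.5, 101.9 and 106.7 CPM with it. All treated libraries were below all controls. The log2 fold change of -0.26 ± 0.10 missed the threshold (adjusted p = 0.0522), but after the correction it was -0.33 ± 0.08 and passed (adjusted p = 0.0107). The corrected call was lost without treated library 2 (0.0894) or 3 (0.0606), and the uncorrected test passed without treated library 1 (0.0393). The median of all genes in its GC class was 0.02, and 5.81% of them were called lower before the correction.

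ALDH1L2 (ENSG00000136010, chromosome 12, 105019784 to 105084577, minus strand), the mitochondrial dehydrogenase that oxidises formyl folate to carbon dioxide, was at 19.01, 12.68 and 19.72 CPM without the inhibitor and 9.59, 8.92 and 9.79 CPM with it. Control 2 lay between the other controls and the treated libraries, which were close together. Its log2 fold change was -0.86 ± 0.18 (the level fell by 45%, adjusted p = 0.00148), and it passed with each library left out (adjusted p up to 0.0158). After the correction it was -0.40 ± 0.15 and did not pass (adjusted p = 0.0815), except without control 2 (0.0449). C12orf45 overlaps ALDH1L2 on the other strand with 232 to 443 reads per library, 64.7% of the ALDH1L2 total.

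In the cytosol, MTHFD1 (ENSG00000100714, chromosome 14, 64388031 to 64463457, plus strand) was at 92.48, 91.21 and 94.02 CPM without the inhibitor and 75.58, 70.88 and 75.30 CPM with it. Both groups were tight and well apart. The groups differed by -0.32 ± 0.10 on the log2 scale (adjusted p = 0.0162), and the call was lost without control 3 (0.0539), treated library 2 (0.0732) or treated library 3 (0.0510), and with a replicate block (0.0546). After the correction it was -0.18 ± 0.08 (adjusted p = 0.2), and with the length trend alone removed it was -0.13 (adjusted p = 0.401). ZBTB25 overlaps MTHFD1 on the other strand, with 229 to 610 reads per library.

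**Figure D4:**
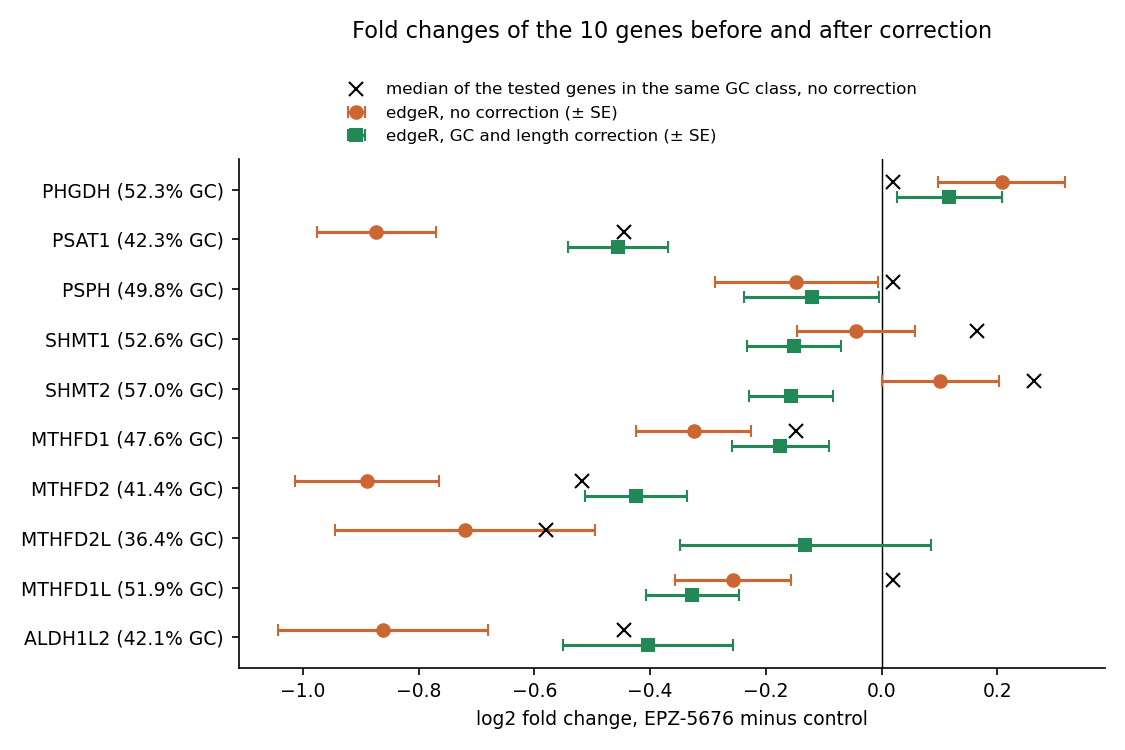
Log2 fold change ± SE of each gene without correction (orange circles) and with the GC and length correction (green squares), with the median of the tested genes in the same GC class (crosses) and the GC content of the longest transcript in brackets. PSAT1, MTHFD2 and ALDH1L2 move from about -0.87 to between -0.46 and -0.40, MTHFD2L moves from -0.72 to -0.13, and MTHFD1L stays below 0 by a similar amount.

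In RPKM the control levels ran from 117 ± 8.60 for SHMT2 down through PSAT1 (48.6 ± 3.15), PHGDH (36.1 ± 2.23), MTHFD1L (25.9 ± 0.921), MTHFD2 (19.0 ± 3.18), SHMT1 (10.96 ± 0.293), MTHFD1 (9.87 ± 0.1495), PSPH (8.55 ± 0.478) and ALDH1L2 (2.02 ± 0.456) to MTHFD2L (0.846 ± 0.119; mean ± SD, n = 3). No neighbours in this order overlapped across the control libraries. In the treated cells PHGDH (41.7 ± 6.26) stood above PSAT1 (26.5 ± 0.673), SHMT1 (10.6 ± 0.616) and MTHFD2 (10.2 ± 1.12) overlapped, and so did MTHFD1 (7.88 ± 0.281) and PSPH (7.72 ± 0.733). The order depends on the length used: per kilobase of the longest transcript instead of all exonic sequence, PHGDH (105) stood above PSAT1 (48.6) in the controls, SHMT1 (28.96) above MTHFD2 (20.8), and ALDH1L2 (2.27), not MTHFD2L (2.61), was the rarest.

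By the Pearson correlation of uncorrected log2 CPM over the 6 libraries, the genes most like PSAT1 among 10684 protein-coding genes were XBP1, YWHAE, CARD16 and ANAPC16 (r of 0.996 to 0.999). Their corrected log2 fold changes were 0.15, -0.06, -0.50 and -0.03, against -0.46 for PSAT1. Those most like MTHFD2 were EIF3H, SYAP1, C3orf38 and the mitochondrial chaperone gene HSPD1 (r of 0.999 each). Corrected, these were at -0.12, -0.21, -0.36 and -0.73, against -0.42 for MTHFD2. The 6 libraries form 2 groups, and r was over 0.95 for 490 and 983 genes. High values were thus common here.

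Beyond the 10 genes, lists of connected genes were read in the same fit, against the same shares of all tested genes. Of 12 tested genes among other folate enzymes and transporters, 4 were higher and 2 lower, and 1 and 2 after the correction. GGH, the lysosomal hydrolase that trims folate polyglutamates, fell from 49.1 ± 7.98 to 23.6 ± 2.11 CPM (log2 fold change -1.06 ± 0.14, adjusted p = 3.5e-05, and -0.87 after the correction). GGH passed in all 23 alternative settings. FPGS, which adds the glutamate tail that GGH removes, rose (0.40 ± 0.10, adjusted p = 0.00475) but was at -0.03 after the correction.

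Of the 4 genes of the glycine cleavage system, which feeds glycine's carbon into mitochondrial folate, 2 were lower and 0 higher, and 0 and 0 after the correction. The dihydrolipoamide dehydrogenase DLD fell (-0.85 ± 0.18, adjusted p = 0.00129), as did the lipoyl carrier GCSH (-0.89 ± 0.30, adjusted p = 0.0247), whose call was lost without control 1, control 3, treated library 1 or treated library 2 (0.0707 to 0.105). DLD is shared with other mitochondrial dehydrogenase complexes. GLDC, the decarboxylase of the system, named after its values were seen, was at 1.33 CPM without the inhibitor and 1.40 CPM with it. Of 13 tested genes of serine transport and use, 5 were lower and 0 higher, and 2 and 0 after the correction, with 1 gene, SLC38A1, called both times. The serine and glutamine transporter SLC1A5, named after its values were seen, entered with a log2 fold change of 0.07 before and -0.31 after (adjusted p = 0.00631), a call lost without treated library 2 (0.0518). The amino acid transporter SLC38A1 fell from 118 ± 28.0 to 65.9 ± 10.6 CPM (-0.84 ± 0.15, adjusted p = 0.000389). With the trends removed it was -0.36 (adjusted p = 0.0155), a call lost without control 1, control 3, treated library 1 or treated library 3 (0.0549 to 0.0942). SPTLC1, a subunit of the serine palmitoyltransferase that starts sphingolipid synthesis, fell (-0.62 ± 0.12, adjusted p = 0.000859) and was at -0.12 after the correction.

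Of 11 tested genes of the methionine cycle and transsulfuration, 4 were lower and 1 higher, and 1 and 0 after the correction. MAT2A, which makes the methyl donor S-adenosylmethionine, fell from 148 ± 23.3 to 88.2 ± 10.3 CPM (-0.74 ± 0.12, adjusted p = 0.000234, and -0.49 after the correction) and passed in all 23 alternative settings. Its regulatory subunit gene MAT2B fell (-0.49 ± 0.11, adjusted p = 0.00284) but was at 0.07 after the correction. AHCY, which clears S-adenosylhomocysteine, rose (0.28 ± 0.10, adjusted p = 0.0452), a call lost without control 1, control 3, treated library 1 or treated library 3 (0.067 to 0.211).

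Of 8 genes of purine synthesis, which consumes formyl folate, 3 were lower and 1 higher, and 1 and 0 after the correction. PAICS fell from 113 ± 22.1 to 64.3 ± 3.89 CPM (-0.82 ± 0.12, adjusted p = 0.000125). With the trends removed it was -0.38 (adjusted p = 0.0102), a call lost without control 1 (0.0594) or treated library 3 (0.0749). PPAT, the first enzyme of the pathway, fell (-1.17 ± 0.24, adjusted p = 0.00117) and was at -0.57 after the correction (adjusted p = 0.119). PFAS rose (0.31 ± 0.11, adjusted p = 0.0407) but was at 0.02 after the correction, and the call was lost without control 1, control 3, treated library 1 or treated library 3 (0.0948 to 0.158). Of the 5 glycolytic genes around 3-phosphoglycerate, 2 were higher and 0 lower, and 1 and 0 after the correction, with 0 genes called both times. PKM rose (0.37 ± 0.11, adjusted p = 0.0113) but was at 0.24 and did not pass after the correction (adjusted p = 0.0633). GAPDH rose (0.35 ± 0.11, adjusted p = 0.0192), a call lost without control 1, control 3 or treated library 1 (0.053 to 0.0711), and was at 0.03 after the correction (adjusted p = 0.847). The gene called only after the correction was PGK1, the kinase that makes 3-phosphoglycerate, named after its values were seen. It was at 0.11 before (adjusted p = 0.429) and 0.49 after (adjusted p = 0.00166), and the corrected call held with each library left out.

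Of 15 tested regulators of serine synthesis genes, 4 were lower and 2 higher, and 4 and 0 after the correction, with 2 genes, ATF4 and NFE2L2, called lower both times. Those that entered were MYC and CEBPB, named after their values were seen. MYC, which was not followed through the alternative settings, went from -0.23 to -0.38 (adjusted p = 0.00449). CEBPB went from 0.21 to -0.25 (adjusted p = 0.024), a call lost without control 3 or any treated library (0.0512 to 0.109). ATF4, named here after its values were seen, was at 239 CPM without the inhibitor and 196 CPM with it. It fell (-0.29, adjusted p = 0.0235), a call lost without control 1 (0.0737), treated library 2 (0.0616) or treated library 3 (0.11), under RLE scaling (0.0654) and with a replicate block (0.0691). Corrected, it was at -0.54 (adjusted p = 9.94e-05). The antioxidant factor NFE2L2 fell from 11.1 ± 1.32 to 6.09 ± 1.56 CPM (-0.86 ± 0.21, adjusted p = 0.00357). After the correction it was -0.62 (adjusted p = 0.0269), a call lost without control 1, treated library 1 or treated library 3 (0.0935 to 0.123). CEBPG, an ATF4 partner, fell (-0.70 ± 0.18, adjusted p = 0.00621) and was at -0.36 after the correction (adjusted p = 0.138). The histone methyltransferase EHMT2 rose (0.41 ± 0.11, adjusted p = 0.00589) and was at 0.05 after the correction. ATF5 rose (0.46 ± 0.16, adjusted p = 0.0331), a call lost without any library but control 1 (0.0552 to 0.115).

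Of 17 other ATF4 target genes, 4 were lower and 2 higher, and 5 and 0 after the correction, with 2 genes called lower both times. The others called after it were SLC3A2, SLC7A5 and PYCR1, of amino acid uptake and proline synthesis, named after their values were seen. They were at 0.02, 0.09 and 0.13 before the correction and at -0.26, -0.27 and -0.25 after it. These corrected calls were lost without most single libraries (SLC3A2 without any but control 3 or treated library 1, 0.057 to 0.132; SLC7A5 without any but control 1, 0.0704 to 0.122; PYCR1 without control 1 or any treated library, 0.0753 to 0.0961). GARS, a glycyl-tRNA synthetase, fell from 151 ± 16.04 to 95.9 ± 4.00 CPM (-0.66 ± 0.10, adjusted p = 0.000201, and -0.57 after the correction) and passed in all 23 alternative settings. The tRNA exporter XPOT fell (-0.62 ± 0.12, adjusted p = 0.000785) but was at -0.14 after the correction. SESN2 rose (0.59 ± 0.14, adjusted p = 0.00286) and was at 0.26 after it, and GPT2 rose (0.41 ± 0.11, adjusted p = 0.00891), a call lost without treated library 1 (0.0754) and after the correction (0.166). The list's median log2 fold change was 0.05, and -0.07 after the correction, against -0.05 and -0.0045 for all tested genes. The sign of the list's median thus turned with the correction.

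**Figure D5:**
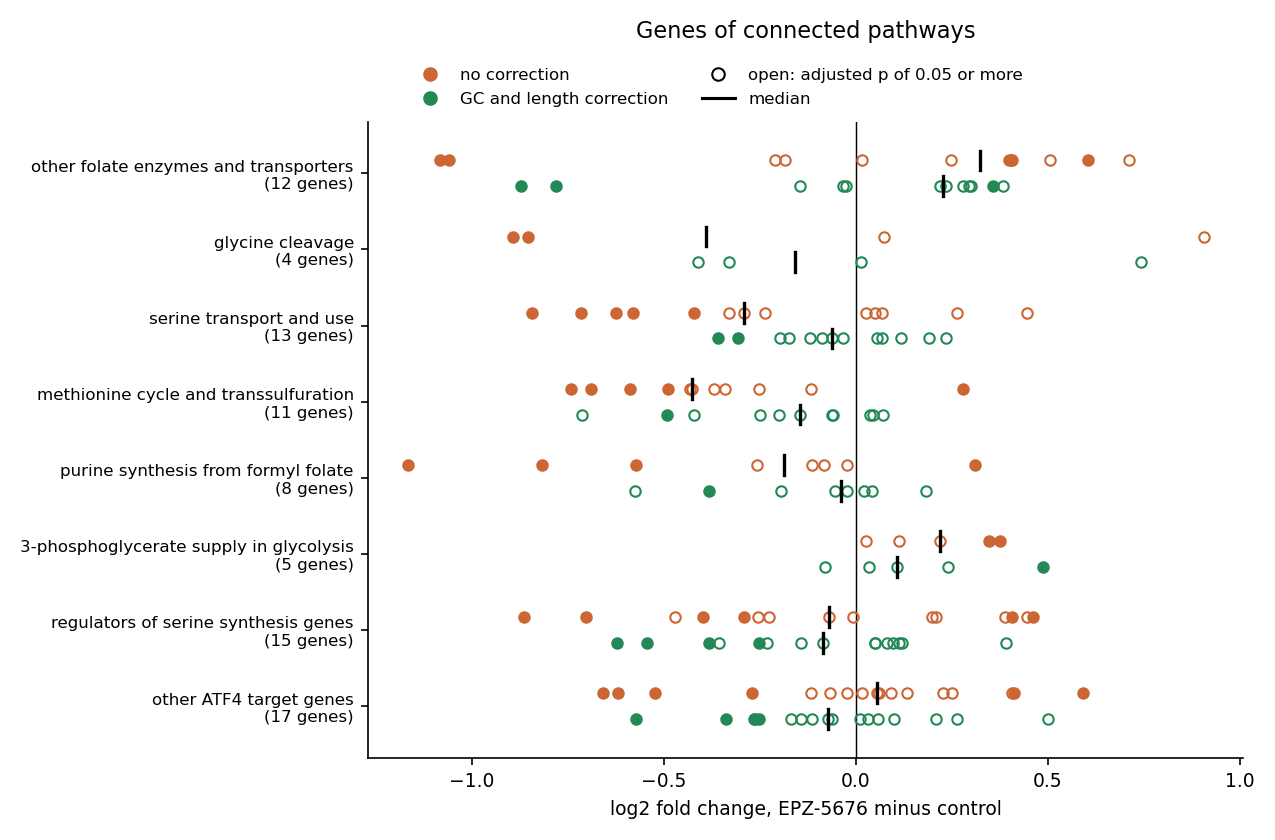
Log2 fold change of the tested genes of each connected gene list without correction (orange) and with the GC and length correction (green); filled points have an adjusted p under 0.05 and black ticks are list medians. GGH lies at -1.06 before the correction and at -0.87 after it, and the median of its list is above 0 in both.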

How the data were processed

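RNA-seq of 6 SW1990 libraries, grouped by their titles, was analysed. Per the labels' protocols, mRNA was selected on oligo(dT) beads and dUTP marked the second strand. Per the submitters' processing notes, HISAT2 2.2.1 served for alignment and the build was GRCh38. The authors deposited raw read counts per gene and the exonic length of each gene. The counting tool and its strand setting were not given in the sources used here. Coordinates of all 58735 genes were those of GENCODE release 29.

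These counts went into edgeR 4.0.16 (R 4.3.3) for testing (filterByExpr with a minimum count of 10, TMM scaling, robust quasi-likelihood F test, two-sided, Benjamini-Hochberg over 15496 genes). The SE is the log2 fold change divided by the square root of F. For the correction, natural splines with 5 degrees of freedom in GC content and in log length of the longest transcript were fitted per library to deviations of log2 CPM (prior count 2) from the gene mean and used as offsets; 15487 genes had these properties. The code was tested on simulated data. Alternatives were other scalings and filters, DESeq2 1.42.0, limma-voom (limma 3.58.1), a replicate block and each library left out. From each pathway list, the 2 called genes with the smallest p per direction were named (some are not reported here), and for PSAT1 and MTHFD2 the 4 most similar protein-coding genes (mean log2 CPM 1 or more). Of the list symbols, 4 had no match. Members, lists, correction and naming rule were chosen with earlier results of these data known. Figures used Python 3.11.15 and matplotlib 3.10.9.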

Additional observations from a re-analysis of the deposited data

How the results depend on the processing

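Alternatives of scaling, filter and tool were RLE, upper quartile, no filter, CPM of at least 1, DESeq2 and limma-voom. They reversed none of the named genes followed through them and left the number of called genes within 1.5 times. However, ATF4 lost its call under RLE scaling and ATF5 without a filter, while MTHFD1L gained one at CPM of at least 1 and CEBPB with DESeq2. Removing the GC and length trends gave 837 genes higher, 864 lower and 3 of the 10 genes lower, and removing the GC trend alone gave 762, 730 and 3; without the length trend alone they were 2784, 2228 and 4. SHMT2 then turned to -0.16 and -0.15, FPGS to -0.0326 and -0.0232, MAT2B to 0.0715 and 0.0782, SLC1A5 to -0.31 and -0.30, CEBPB to -0.25 and -0.25, SLC3A2 to -0.26 and -0.25 (-0.0116 without the length trend alone), SLC7A5 to -0.27 and -0.27, and PYCR1 to -0.25 and -0.25. The trends were removed by construction, and the cause of the remaining differences was not tested. Same-numbered libraries showed no clear shared deviation (correlations -0.111, -0.093 and 0.047, against -0.08 to 0.155 for differently numbered ones). With 3 libraries per group this cannot settle whether the numbers pair the samples. A replicate block gave 1677 genes higher, 2219 lower and 4 of the 10 genes lower (MTHFD1 was lost, as were AHCY, PFAS, ATF5 and ATF4), and with the trends also removed 689, 685 and 3, with SHMT2 at -0.16, FPGS at -0.0323, MAT2B at 0.073, SLC1A5 at -0.31, CEBPB at -0.25, SLC3A2 at -0.26, SLC7A5 at -0.26 and PYCR1 at -0.25. With each library left out in turn, 1350 to 2780 genes were higher and 1753 to 3167 lower, or 397 to 856 and 512 to 815 with the trends removed. Over both sets 2 to 6 of the 10 genes were lower. Log2 fold changes then ran from -0.19 to 0.18 for SHMT2, -0.0489 to 0.47 for FPGS, -0.51 to 0.12 for MAT2B, -0.0285 to 0.33 for AHCY, -0.0133 to 0.41 for PFAS, -0.0051 to 0.27 for PHGDH, -0.33 to 0.15 for SLC1A5, -0.29 to 0.28 for CEBPB, -0.30 to 0.0776 for SLC3A2, -0.33 to 0.18 for SLC7A5, -0.28 to 0.19 for PYCR1 and -0.96 to 0.0277 for MTHFD2L. Over the same omissions the log2 difference ran from -0.32 to 0.17 for the ratio of MTHFD2 to MTHFD2L and from -1.14 to -0.93 for PSAT1 to PHGDH, whose alternatives were chosen after seeing the data. MTHFD2L and ALDH1L2 had the lowest read counts and the widest standard errors of the 10 genes.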
